A study of Mus musculus with 6 samples.

Results

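The genes examined were the 2 transcriptional co-activators at the end of the Hippo pathway, Yap1 (YAP) and Wwtr1 (TAZ), the DNA-binding factors Tead1, Tead2, Tead3 and Tead4, the Vestigial-like cofactors Vgll3 and Vgll4, and the kinases Lats1 and Lats2. They were picked by symbol as a pathway list and are 10 of the 45777 genes listed in the deposited matrix. All 10 passed the filter on low counts, which 17210 genes passed. RNA was sequenced from 3 tumors of the hind footpad and 3 tumors of the flank, 1 library each. Both sites carried grafts of B16F10, a pigmented mouse melanoma cell line of the C57BL/6 background, and the study asked how the 2 sites differ, the sole of the foot being a site that bears weight. All 6 libraries are labelled as coming from Foxn1-/- hosts (nude mice, which lack a thymus) aged 8 weeks, and the labels name no further transgene or treatment. The study's text describes B16F10 grafts in C57BL/6J mice as well and does not name the host of the sequenced tumors. B16F10 is a single cell line, so the tumors are separate grafts of the same melanoma and not separate melanomas. The study's methods describe grafts placed at both sites of a mouse at the same time. A legend of the study on expression in footpad relative to flank tumors gives n = 3 mice, so both sites may come from the same animals. Neither the study's text nor the labels tie a given footpad tumor to a given flank tumor. The tumors were therefore compared unpaired, which leaves out any such pairing, and the p-values measure the spread between them. A fit with the replicate number as a block is given at the end.

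In the Hippo pathway, the Lats kinases phosphorylate YAP and TAZ, which are then held in the cytoplasm by 14-3-3 proteins or degraded. When the kinases are inactive, as in spread or stretched cells, YAP and TAZ enter the nucleus and bind TEAD factors, which bring them to DNA because YAP and TAZ cannot bind it themselves. Vgll proteins bind the same face of TEAD and can compete with YAP and TAZ, and LATS2 is itself a target of YAP and TEAD. Most of this control acts on where the proteins are and how they are modified, which RNA levels do not measure.

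The gene models lie on 8 chromosomes of GRCm38, in RefSeq's coordinates. Yap1 is at chr9:7931999-8004638 and Wwtr1 at chr3:57455644-57575910, both on the minus strand. Of the factors, Tead1 is at chr7:112679356-112906784 and Tead2 at chr7:45215792-45233468 on the plus strand, and Tead3 at chr17:28331671-28350805 and Tead4 at chr6:128227143-128300813 on the minus strand. The cofactor genes are Vgll3 at chr16:65815189-65866368 on the plus strand and Vgll4 at chr6:114860621-114970007 on the minus strand. Among the kinases, Lats1 is at chr10:7681200-7716461 on the plus strand and Lats2 at chr14:57689662-57746212 on the minus strand. In the GENCODE M21 annotation, 42.4% of the exon bases of Lats2 are shared with Gm49361, a gene on the same strand that was not analysed here, so reads of the 2 cannot be told apart in those bases. Exon overlaps with genes on the opposite strand were 116 bases for Yap1 and 13 bases for Tead2. Whether the reads were counted by strand is not given in the sources used here.

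Start-site sequence is shown because TEAD factors bind a short core motif, GGAATG, and some genes of the pathway, LATS2 among them, are known targets of YAP and TEAD. RefSeq windows of 300 bases (250 before and 50 from the annotated start, build GRCm38.p6) were at hand for 8 of the 10 genes, 12 windows in all, and none was at hand for Tead1 or Tead4. The core was found on either strand in windows of 6 of the 8 genes, and in 8 of the 12 windows, against 14.7% of 32817 windows of all genes. The 12 windows are not independent, since those of Wwtr1 overlap each other, as do those of Tead3. Both Wwtr1 windows hold the same copy of the core, which is counted in each. The AP-1 motif TGANTCA, whose factors often lie beside TEAD, was in none of the 12 windows and in 7.81% of all windows. These matches describe the letters and were not compared with binding data. In the stretches below, written 5′ to 3′ on the strand of the gene, capitals mark the core, which reads CATTCC where it lies on the opposite strand.
Yap1, chr9:8004702-8004767, minus: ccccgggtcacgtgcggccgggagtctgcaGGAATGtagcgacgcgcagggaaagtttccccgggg
Wwtr1, chr3:57576011-57576076, minus: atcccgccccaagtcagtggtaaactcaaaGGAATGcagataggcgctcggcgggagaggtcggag
Tead3, chr17:28350679-28350753, minus: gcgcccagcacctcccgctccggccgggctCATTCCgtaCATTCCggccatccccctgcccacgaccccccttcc
Vgll3, chr16:65815096-65815161, plus: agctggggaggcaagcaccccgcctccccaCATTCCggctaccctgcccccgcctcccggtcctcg
Vgll4, chr6:114969250-114969315, minus: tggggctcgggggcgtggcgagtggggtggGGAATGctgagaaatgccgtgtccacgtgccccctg
Lats2, chr14:57746112-57746149, minus: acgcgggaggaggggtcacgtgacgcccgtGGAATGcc
Tead3 held 2 copies of the core 3 bases apart in this stretch and another 2 outside it. Tead2 and Lats1 had no copy in their windows. The 150 bases before the start of Tead2 are given for comparison, since Tead2 differed between the sites.
Tead2, chr7:45215642-45215791, plus: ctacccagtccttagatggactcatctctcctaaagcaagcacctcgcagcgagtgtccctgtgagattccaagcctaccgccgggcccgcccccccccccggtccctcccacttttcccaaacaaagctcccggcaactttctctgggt

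Depth was 46529649 to 66364366 counts per tumor, with 21060 to 22607 genes holding at least 1 read. Fits were made with edgeR's quasi-likelihood test, and a gene was called when its p-value, adjusted over all 17210 genes by the Benjamini-Hochberg method, was under 0.05 and its fold change at least 2. By this rule 647 genes (3.76%) were called, 497 of them (2.89%) higher in footpad tumors and 150 (0.872%) lower. The number of genes called varied with the tumor left out. It was 308, 530 and 46 without flank tumors 1, 2 and 3. Without footpad tumors 1, 2 and 3 it was 31, 836 and 0. Without footpad tumor 3, 3289 genes still had an unadjusted p under 0.05 in edgeR, against 4349 with all tumors. Melanocyte lineage markers were high in all tumors, with a summed level of 10067 to 18637 CPM (reads scaled to a common library size) in the footpad and 14814 to 25513 in the flank, and 7 T cell markers together stayed at or below 0.204 CPM. Fibroblast markers separated the sites: their sum was 2826 to 3838 CPM in footpad tumors and 135 to 465 CPM in flank tumors, and 8 of the 10 were called higher in the footpad. Footpad tumor 2 stood apart, with 441 CPM of keratinocyte markers and 538 CPM of skeletal muscle markers against at most 21.5 and 68.5 CPM in the other tumors. Where it decides a value below, the value without it is given as well.

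Among the 10 genes, the RNA of 2 TEAD factors differed between the sites, in opposite directions, and the RNAs of YAP, TAZ, both Vgll cofactors and both Lats kinases did not pass the test. Tead4 was 2.47 times as high in footpad as in flank tumors and was the 1 member called. Tead2 was 1.91 times as high in flank tumors with an adjusted p under 0.05, short of the 2-fold threshold. DESeq2, run as an alternative, also called Tead4 alone, beside 8.78% of the 17158 genes it tested. Without the fold threshold, 4.87% of all genes tested passed, 3.43% higher and 1.44% lower in the footpad. The median log2 fold change of the 10 genes, footpad over flank, was 0.099, beside -0.0042 over all genes tested. In CPM scaled by the TMM method, the 3 footpad tumors lay wholly above the 3 flank tumors for Tead4 and Lats2 and wholly below them for Tead2 and Yap1, and the sites overlapped for the other 6 genes. Over all genes tested, 17.5% lay wholly above and 14.9% wholly below, so 4 of 10 is to be read against 32.5%.

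**Figure D1:**
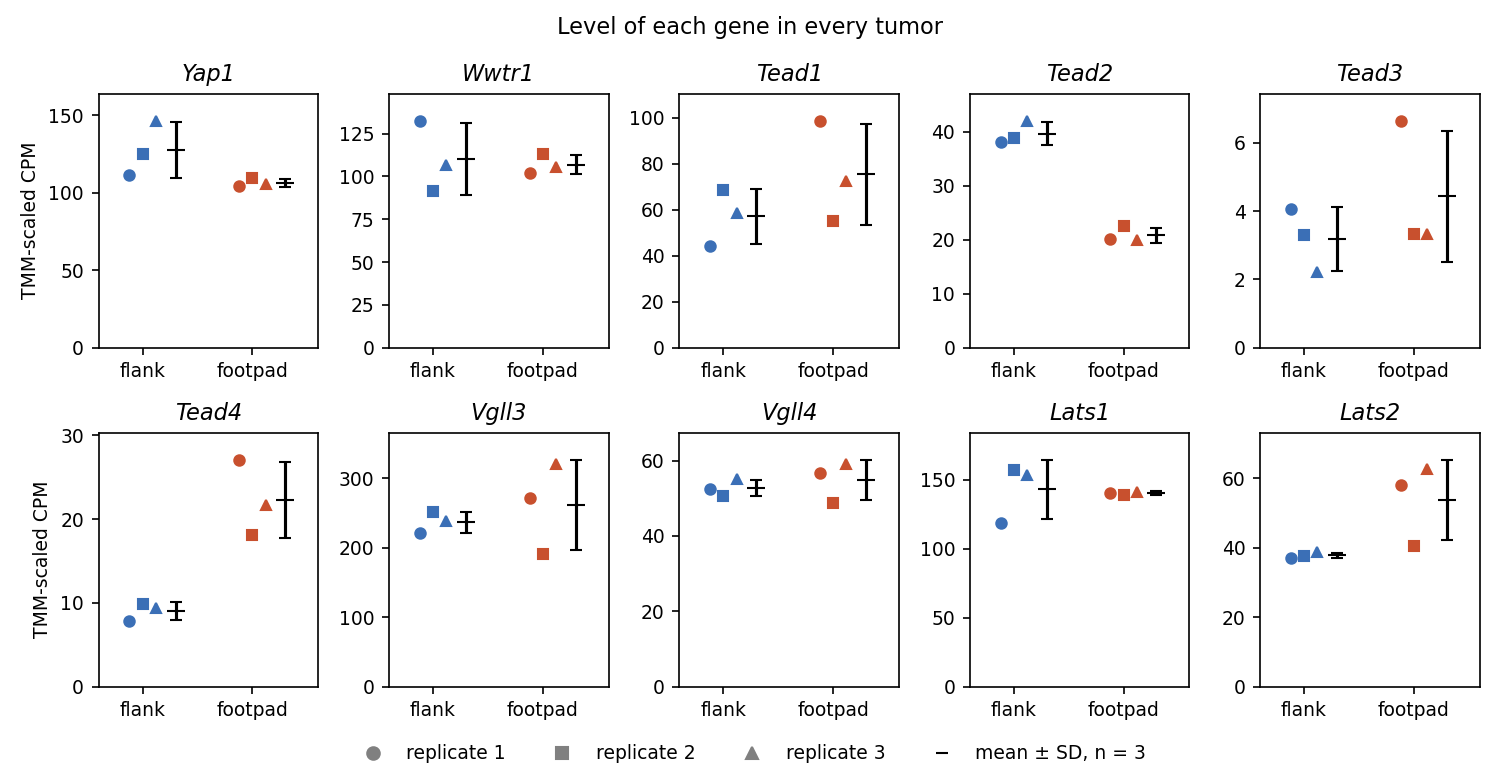
TMM-scaled CPM (vertical axis, starting at 0, a separate scale for each gene) of the 10 genes in 3 flank tumors (blue) and 3 footpad tumors (red). Marker shapes give the replicate number, and the black bars the mean ± SD of 3 tumors. Tead2 and Tead4 show the widest gaps between the sites, while Wwtr1, Vgll4 and Lats1 overlap.

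**Figure D2:**
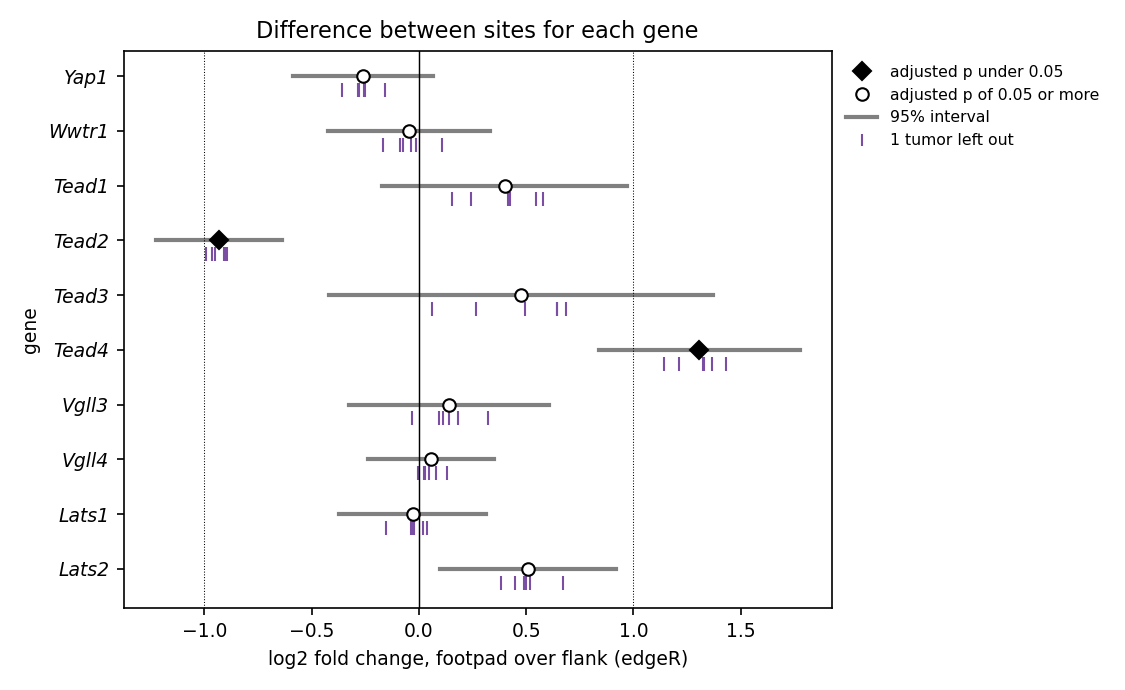
Log2 fold change of each gene, footpad over flank, from edgeR (horizontal axis, dotted lines at 2-fold). Grey bars are 95% intervals, purple ticks the values with 1 of the 6 tumors left out, and filled diamonds mark an adjusted p under 0.05, which Tead2 and Tead4 had.

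In CPM, Yap1, the main transcriptional effector of the pathway, was somewhat lower in every footpad tumor than in any flank tumor. Its level was 105, 109 and 106 CPM in footpad tumors 1, 2 and 3, and 111, 125 and 147 CPM in flank tumors 1, 2 and 3. The 2 ranges did not overlap, but they were separated by little, and flank tumor 3 was well above the other tumors. In FPKM, which divides by transcript length and depth without the TMM scaling, the ranges of the sites overlapped. Length is the same for 1 gene in every tumor, so the separation in CPM depended on the scaling between libraries. Its FPKM was 22.0, 25.5 and 23.6 in footpad tumors and 23.0, 29.4 and 32.1 in flank tumors. The means were 106.5 ± 2.45 CPM in the footpad and 127.7 ± 17.8 CPM in the flank (SD, n = 3 each). This gave a log2 fold change of -0.26 (SE 0.14, 95% interval -0.59 to 0.06), with an edgeR adjusted p of 0.284, so the difference did not pass the test. The upper end of this interval was a 1.05-fold rise of Yap1 RNA in footpad tumors. Without flank tumor 3 the log2 fold change was -0.16.

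Wwtr1 encodes TAZ, the paralog of YAP. Its footpad levels, 102, 113 and 106 CPM, lay inside the spread of the flank levels, 132, 91.3 and 106 CPM. The log2 fold change was -0.04 (SE 0.16, 95% interval -0.42 to 0.33, adjusted p = 0.890 in edgeR), and it was 0.11 without flank tumor 1, whose level was the highest. TAZ made up 44.4%, 46.7% and 46.1% of the summed Yap1 and Wwtr1 FPKM in footpad tumors and 49.8%, 38.8% and 38.3% in flank tumors. FPKM divides by transcript length, so these shares compare levels between genes. The mean shares were 45.7% and 42.3%, and the difference of 3.44 percentage points was within the spread (exact two-sided permutation test, p = 0.4, where 3 tumors against 3 cannot give less than 0.1). It was 7.21 points without flank tumor 1, 1.69 points without flank tumor 2 and 1.42 points without flank tumor 3. Summed over both genes, the FPKM was 43.7 ± 4.10 in footpad and 48.6 ± 3.15 in flank tumors (SD, n = 3 each).

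Tead4, a TEAD factor known for its role in the trophectoderm of the early embryo and in muscle, had 27.1, 18.1 and 21.7 CPM in footpad tumors and 7.85, 9.82 and 9.38 CPM in flank tumors. Every footpad tumor was well above every flank tumor, and the lowest footpad value was that of tumor 2. For Tead4 the log2 fold change was 1.31 (SE 0.20, 95% interval 0.84 to 1.77), with an edgeR adjusted p of 0.0212. The study's methods name an isolation of the tumor cells before RNA extraction without saying how, and the labels name removal of the tumors only. Fibroblast markers were detected in all 6 libraries, and in RNA of mixed cells, more cells that express a gene and more of its RNA per cell cannot be told apart. The direction held when each tumor was left out in turn, with log2 fold changes of 1.14 to 1.43. The adjusted p was above 0.05 without flank tumor 3 (0.085), footpad tumor 1 (0.081) and footpad tumor 3 (0.102), and was 0.0206 without footpad tumor 2. Over all alternatives it ranged from 6.14e-07 to 0.102.

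Tead2, the TEAD factor that is abundant in early embryonic and neural crest-derived cells, showed the opposite pattern with a narrow spread. Its level was 20.0, 22.5 and 19.9 CPM in the 3 footpad tumors and 38.2, 38.8 and 42.1 CPM in the 3 flank tumors. No footpad tumor came near the flank range. The log2 fold change was -0.93 (SE 0.13, 95% interval -1.23 to -0.64), with an edgeR adjusted p of 0.0154, and the interval includes 2-fold. It stayed between -0.99 and -0.89 when each tumor was left out. The adjusted p was 0.074 without flank tumor 3, 0.072 without footpad tumor 1 and 0.101 without footpad tumor 3, and ranged from 2.73e-08 to 0.101 over all alternatives.

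Tead1, broadly expressed and prominent in muscle, had 98.7, 55.0 and 72.5 CPM in footpad tumors and 44.4, 68.4 and 58.5 CPM in flank tumors. The ranges overlapped, with the highest value in footpad tumor 1. Its log2 fold change was 0.40 (SE 0.25, 95% interval -0.17 to 0.97, adjusted p = 0.35 in edgeR), and it was 0.16 without footpad tumor 1. Tead3 was the lowest of the 10 genes, at 6.64, 3.33 and 3.33 CPM in the footpad and 4.07, 3.28 and 2.21 CPM in the flank. Only footpad tumor 1 stood above the rest. The log2 fold change of Tead3 was 0.47 (SE 0.38, 95% interval -0.42 to 1.37, adjusted p = 0.473 in edgeR), and 0.06 without footpad tumor 1. With 138 to 296 reads per tumor, counting error for Tead3 was at most 8.51%, well below the spread between tumors of 43.2% in the footpad and 29.4% in the flank.

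Counted per transcript length, the make-up of the TEAD family differed between the sites while its total did not separate them. The summed FPKM of the 4 genes was 25.2, 21.9 and 22.8 in footpad tumors and 21.8, 28.7 and 26.3 in flank tumors. Those sums overlapped. Tead4 made up 29.0%, 25.6% and 28.5% of the sum in footpad tumors and 9.68%, 10.9% and 10.3% in flank tumors. The shares of the 2 sites did not overlap, with means of 27.7% ± 1.86 and 10.3% ± 0.605 (SD, n = 3 each), a difference of 17.4 percentage points (exact two-sided permutation test, p = 0.1, the smallest that 3 tumors against 3 can give).

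Tead2 made up most of the TEAD sum in flank tumors, at 67.7%, 61.5% and 67.0%, and 30.7%, 45.1% and 37.3% in footpad tumors. Tead2 was thus the leading TEAD RNA in all flank tumors, whereas in footpad tumor 1 Tead1 (32.4%) was ahead of it. The FPKM of Tead2 was 6.99, 5.64 and 6.52 times that of Tead4 in flank tumors and 1.06, 1.77 and 1.31 times in footpad tumors. This ratio and the Tead2 share were chosen after the values were seen and were not tested. The mean share of Tead1 was 28.5% in the footpad and 20.1% in the flank, and that of Tead3 was 6.10% and 4.24%.

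**Figure D3:**
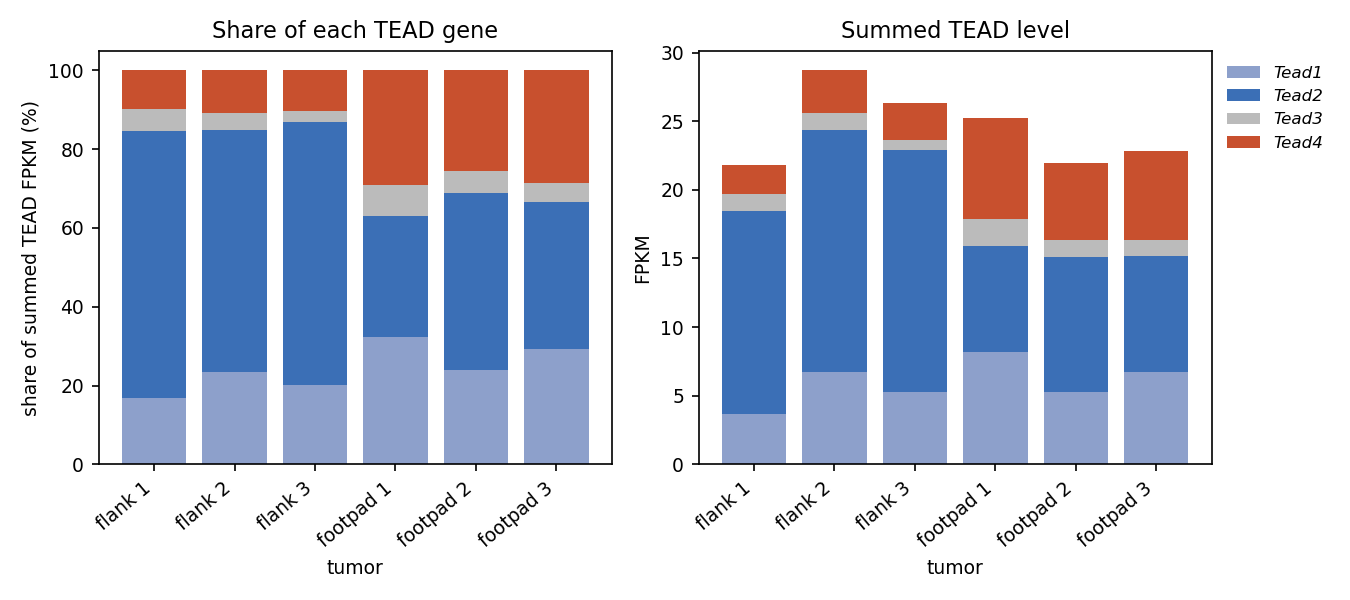
Left, percentage of the summed TEAD FPKM held by each of the 4 TEAD genes in each tumor. Right, the same genes as stacked FPKM. In flank tumors Tead2 held 61.5% to 67.7% and Tead4 at most 10.9%, in footpad tumors Tead4 held 25.6% to 29.0%, and the sums overlapped between the sites.

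Vgll3, a cofactor that binds TEAD in place of YAP and is known from mesenchymal cells and skin, was the most abundant of the 10 genes in mean FPKM at both sites. Its level was 271, 192 and 321 CPM in footpad tumors and 221, 251 and 238 CPM in flank tumors. Footpad tumors held both the highest and the lowest value. The log2 fold change was 0.14 (SE 0.20, 95% interval -0.32 to 0.61, adjusted p = 0.690 in edgeR). It turned to -0.03 without footpad tumor 3, was 0.32 without footpad tumor 2, and passed the test in neither case.

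Vgll4, which competes with YAP for TEAD, had 56.6, 48.7 and 59.1 CPM in footpad tumors and 52.5, 50.7 and 55.0 CPM in flank tumors. The values lay close together. Its log2 fold change was 0.06 (SE 0.13, 95% interval -0.24 to 0.35, adjusted p = 0.816 in edgeR) and -0.0035 without footpad tumor 3. Vgll3 held 66.2% of the summed FPKM of the 2 cofactor genes in footpad and 65.6% in flank tumors (difference 0.613 points, exact two-sided permutation test, p = 0.9). The sign of that difference turned without footpad tumor 1 (-0.212), footpad tumor 3 (-1.02) or flank tumor 1 (-0.569). It was 3.07 points without footpad tumor 2, 2.21 points without flank tumor 2 and 0.198 points without flank tumor 3. The remaining Vestigial-like genes were at or near 0: Vgll1 had no read in any tumor, and Vgll2 had 2 reads, both in footpad tumor 2.

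Lats1 encodes a kinase that phosphorylates YAP and TAZ directly. Its levels in footpad tumors, 141, 139 and 141 CPM, differed by little, and those in flank tumors were 119, 157 and 153 CPM. The footpad values lay inside the flank range. Its log2 fold change was -0.03 (SE 0.15, 95% interval -0.37 to 0.31, adjusted p = 0.921 in edgeR), and 0.04 and 0.02 without flank tumors 2 and 3.

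Lats2, the paralog of Lats1 and a YAP target gene, had 58.0, 40.6 and 62.5 CPM in footpad tumors and 37.0, 37.6 and 38.6 CPM in flank tumors. The flank values were nearly equal and all below the footpad values, but footpad tumor 2 was close to them. The log2 fold change was 0.51 (SE 0.18, 95% interval 0.10 to 0.92), and its p of 0.0215 before adjustment, which 25.3% of all genes had under 0.05, became 0.129 after it in edgeR. Without footpad tumor 2 the log2 fold change was 0.67 with an adjusted p of 0.043, and over all alternatives the adjusted p ranged from 0.043 to 0.352. Lats2 held 37.9%, 30.2% and 39.4% of the summed Lats1 and Lats2 FPKM in footpad tumors and 32.1%, 25.4% and 26.3% in flank tumors. The shares overlapped (difference 7.92 points, exact two-sided permutation test, p = 0.2).

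In mean FPKM the order of the 10 genes was the same at both sites except for the place of Tead2. In footpad tumors it was Vgll3 (33.0), Yap1 (23.7), Wwtr1 (20.0), Lats1 (17.3), Vgll4 (16.5), Lats2 (9.74), Tead2 (8.72), Tead1 (6.70), Tead4 (6.48) and Tead3 (1.44). In flank tumors Tead2, at 16.7 FPKM, lay between Lats1 (17.8) and Vgll4 (15.7), and the others were Vgll3 (30.1), Yap1 (28.2), Wwtr1 (20.5), Lats2 (6.77), Tead1 (5.23), Tead4 (2.65) and Tead3 (1.06). Neighbours in the footpad order whose ranges did not overlap were Vgll3 and Yap1, Vgll4 and Lats2, and Tead4 and Tead3. In the flank order these were Yap1 and Wwtr1, Vgll4 and Lats2, Tead1 and Tead4, and Tead4 and Tead3. The ranges of the other neighbours overlapped. Within single tumors, Yap1 was above Wwtr1 and Wwtr1 above Lats1 in 3 of 3 footpad tumors, and Lats2 above Tead1 in 3 of 3 flank tumors, although these ranges overlapped.

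The genes whose pattern over the 6 tumors was closest to that of Tead2 were Ncapg, a condensin subunit, then Xlr3c, Gm12335, Zfp708 and the histone gene H2ac21. Likeness was measured as the root mean square difference of log2 CPM centred on each gene's mean, which was 0.068 for Ncapg and 0.097 for H2ac21. Ncapg had 45.1, 53.0 and 48.8 CPM in footpad and 89.9, 102 and 98.9 CPM in flank tumors. For Tead4 the closest were Basp1, Adgrg1, Gm45988, Fam78b and Il2rg, at distances of 0.039 to 0.108. Basp1, a membrane-associated protein of the cell cortex, had 22.8, 14.3 and 16.8 CPM in footpad and 6.33, 7.97 and 7.69 CPM in flank tumors. Neither ranking speaks of shared control.

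Upstream of the Lats kinases, the core genes of the pathway were not called. The list of Hippo kinases and adaptors held 27 genes, of which 26 were tested, 1 was called higher and none lower, with 16 positive log2 fold changes and a median of 0.07. At an unadjusted p under 0.05 there were 10 of 26 (38.5%), beside 25.3% of all genes, and DESeq2 called Rassf4 besides Rassf5. Stk3 and Stk4, the MST kinases, had log2 fold changes of -0.29 and 0.24 (adjusted p = 0.193 and 0.394 in edgeR), Sav1, their scaffold, -0.47 (0.176), and Nf2, the membrane-bound activator merlin, 0.10 (0.626). The called gene was Rassf5, a Ras-binding adaptor of the MST kinases found mostly in lymphoid cells. Rassf5 had 4.38, 2.61 and 3.10 CPM in footpad and 0.690, 0.907 and 0.288 CPM in flank tumors, a log2 fold change of 2.42 (SE 0.48, adjusted p = 0.0376 in edgeR).

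Genes of cell junctions and polarity, which pass cell contact on to the kinases, had no call among 22 tested of 23, with a median log2 fold change of 0.26 and the smallest p in Fat2 (4.11, adjusted p = 0.0969 in edgeR). Fat2, a giant cadherin of epidermis, had 5.19 CPM in footpad tumor 2 and at most 0.718 CPM in any other tumor, so its value was set by the library with the keratinocyte markers and was 1.93 (adjusted p = 0.243) without it. In this list 5 genes (22.7%) had an unadjusted p under 0.05, near the 25.3% of all genes, and DESeq2 called 2, Fat2 and Fat4. The STRIPAK complex, a phosphatase that restrains the MST kinases, had no call among 17 genes in edgeR or DESeq2, with a median of 0.10 and 5 genes (29.4%) at an unadjusted p under 0.05. There the smallest p belonged to the kinase gene Stk26 (2.17, adjusted p = 0.0701 in edgeR), at 0.651 CPM or less in every tumor, and to the scaffold gene Ppp2r1a (0.48, 0.105). The 14-3-3 proteins and the genes that degrade YAP and TAZ, 11 in all, had no call in edgeR and a median of 0.05. Csnk1e (0.50, adjusted p = 0.0718) and Sfn (1.62, 0.112), first by p, were the 2 (18.2%) with an unadjusted p under 0.05, and DESeq2 called Sfn. Footpad tumor 2 carried the value of Sfn as well, with 9.35 CPM against 2.65 and 2.82 CPM in the other footpad tumors and 1.45 to 1.89 CPM in the flank, and without it the log2 fold change was 0.76 (adjusted p = 0.203 in edgeR).

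Of 13 other cofactors of TEAD and YAP, 11 were tested and 1 was called higher, with a median log2 fold change of 0.53 and 5 (45.5%) at an unadjusted p under 0.05. This was Runx2, a factor of bone and cartilage that can bind YAP and TAZ. Runx2 had 10.5, 3.82 and 6.80 CPM in footpad and 1.59, 1.13 and 0.703 CPM in flank tumors, a log2 fold change of 2.62 (SE 0.47, adjusted p = 0.0298 in edgeR). In a list of 22 YAP and TAZ target genes, which includes Lats2, 21 were tested, 18 had a positive log2 fold change, the median was 0.61 and 2 were called higher, beside 2.89% of all genes. At an unadjusted p under 0.05 there were 10 of 21 (47.6%), beside 25.3% of all genes. The 2 called were Arhgef17, a guanine nucleotide exchange factor (1.58, SE 0.27, adjusted p = 0.0271 in edgeR), and Myof, the membrane protein myoferlin (1.36, SE 0.25, adjusted p = 0.0321). Arhgef17 had 6.15, 7.16 and 7.08 CPM in footpad and 1.90, 2.96 and 1.95 CPM in flank tumors. Ccn2 and Ccn1, the target genes most often measured, had log2 fold changes of 1.22 and 1.13 with adjusted p-values of 0.117 and 0.187 in edgeR. Without footpad tumor 2, their lowest footpad value, these were 1.48 and 1.49 (adjusted p = 0.0635 and 0.0501). Of the target genes 22 were then tested, 3 were called and 12 had an unadjusted p under 0.05. Over all 17639 genes tested without that tumor, 836 were called and 4551 had an unadjusted p under 0.05. DESeq2 called 6 genes of this list, Arhgef17, Myof and Ccn2 among them, beside 8.78% of all genes it tested.

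Over the 6 lists, without the 10 genes, 4 of 104 genes tested were called, all higher in the footpad, beside 3.76% of all genes. Their median log2 fold change was 0.16, and 71 were positive. None of these 4 calls stood without flank tumor 1, flank tumor 3, footpad tumor 1 or footpad tumor 3, where no list gene was called and 34, 26, 22 and 21 list genes had an unadjusted p under 0.05, against 36 with all tumors, and 6 list genes were called without footpad tumor 2.

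**Figure D4:**
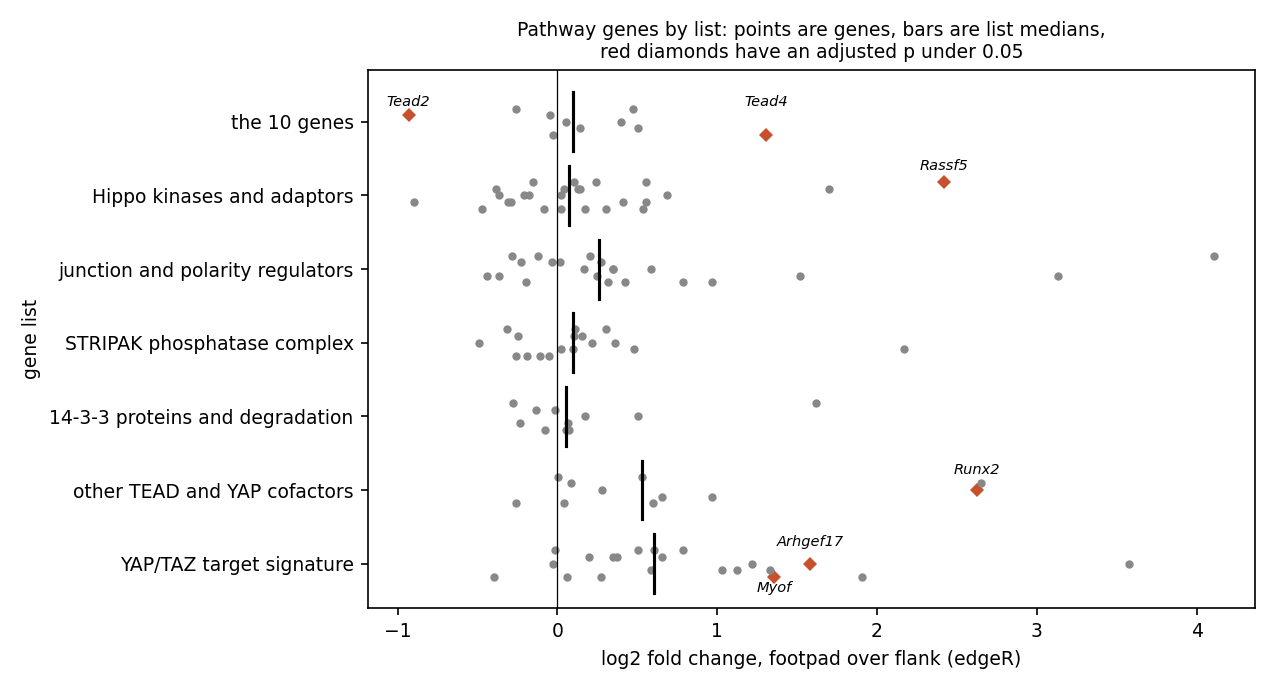
Log2 fold change, footpad over flank (edgeR), of the 10 genes and of each tested gene of 6 pathway lists. Points are genes, black bars the median of each list, and red diamonds genes with an adjusted p under 0.05, which are named. Among the lists, those of other cofactors (0.53) and of target genes (0.61) had the highest medians.

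Sums of fibroblast, endothelial and macrophage markers separated the sites, with footpad tumors above, and so did Schwann cell markers, with footpad tumors below. Those sums moved with the site, as Tead4, Tead2, Lats2 and, by little, Yap1 did in CPM. Sums of melanocyte, neutrophil, keratinocyte, skeletal muscle and T cell markers overlapped between the sites. For melanocyte and neutrophil markers the overlap came from footpad tumor 2. The melanocyte sum was 18637 CPM in that tumor, and 10067 and 12927 CPM in footpad tumors 1 and 3, below the flank range of 14814 to 25513 CPM. Of the 10 fibroblast markers, 8 were called higher in the footpad, the median of the list being 3.23 on the log2 scale. The collagen genes Col1a1 and Col3a1 had 4.10 and 4.08. Not called were Pdgfra (2.90, adjusted p = 0.0848 in edgeR) and Fbln1 (0.30, 0.335). The study's text states that melanoma cells, too, express collagen genes highly, and which cells made these RNAs was not tested. Of 8 endothelial markers 2 were called higher, the summed level being 289 to 310 CPM in footpad and 160 to 194 CPM in flank tumors. For 8 macrophage markers 1 was called higher, and the sums were 108 to 142 CPM and 22.2 to 92.2 CPM. Melanocyte lineage markers had no call in edgeR or DESeq2, 1 of 8 at an unadjusted p under 0.05 and overlapping sums, and Schwann cell markers, with 1 of 6 called higher, summed to 380 to 396 CPM in footpad and 434 to 455 CPM in flank tumors. Neutrophil markers had no edgeR call among 6 tested, all 6 at an unadjusted p under 0.05 and 2 called by DESeq2, with sums of 6.87 to 364 CPM in footpad and 4.76 to 30.2 CPM in flank tumors. Keratinocyte and skeletal muscle markers had no edgeR call among 6 and 8 tested, with 5 and 0 at an unadjusted p under 0.05 and 1 and 0 called by DESeq2. Without footpad tumor 2, keratinocyte markers had no call among 5 tested, with 1 at an unadjusted p under 0.05, skeletal muscle markers had none among 8, with 1, 5 of 6 neutrophil markers were called, and 8 of 10 fibroblast markers were called as with all tumors. Of 8 melanocyte lineage markers 1 was then called lower, Tyr (log2 fold change -1.81, adjusted p = 0.049 in edgeR). There were 4 at an unadjusted p under 0.05, and the list median was -0.67. The part of these cells in the differences of Tead4, Tead2, Lats2 and Yap1 was not tested.

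Within the flank, Tead4 had the order of the fibroblast sum over the 3 tumors. It was 7.85 CPM beside 135 CPM of markers in tumor 1, 9.38 CPM beside 173 CPM in tumor 3 and 9.82 CPM beside 465 CPM in tumor 2, the last 2 differing by little. Within the footpad, Tead4 was 27.1 CPM beside 2826 CPM of markers in tumor 1, 18.1 CPM beside 2857 CPM in tumor 2 and 21.7 CPM beside 3838 CPM in tumor 3, in another order. Tead2 (38.2, 38.8 and 42.1 CPM in flank tumors 1, 2 and 3) and Lats2 (37.0, 37.6 and 38.6 CPM) did not have the order of the sum within the flank. In CPM, footpad tumor 2, with its keratinocyte and muscle markers, had the lowest footpad value of Tead1, Tead4, Vgll3, Vgll4 and Lats2. For Lats1 and Tead3 it was the lowest by little. In FPKM it had the highest footpad value of Lats1 (18.1), and footpad tumor 1 had the lowest of Vgll4 (15.0). Without footpad tumor 2 the log2 fold change was 0.58 for Tead1, 1.43 for Tead4, -0.99 for Tead2 and 0.13 for Vgll4.

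**Figure D5:**
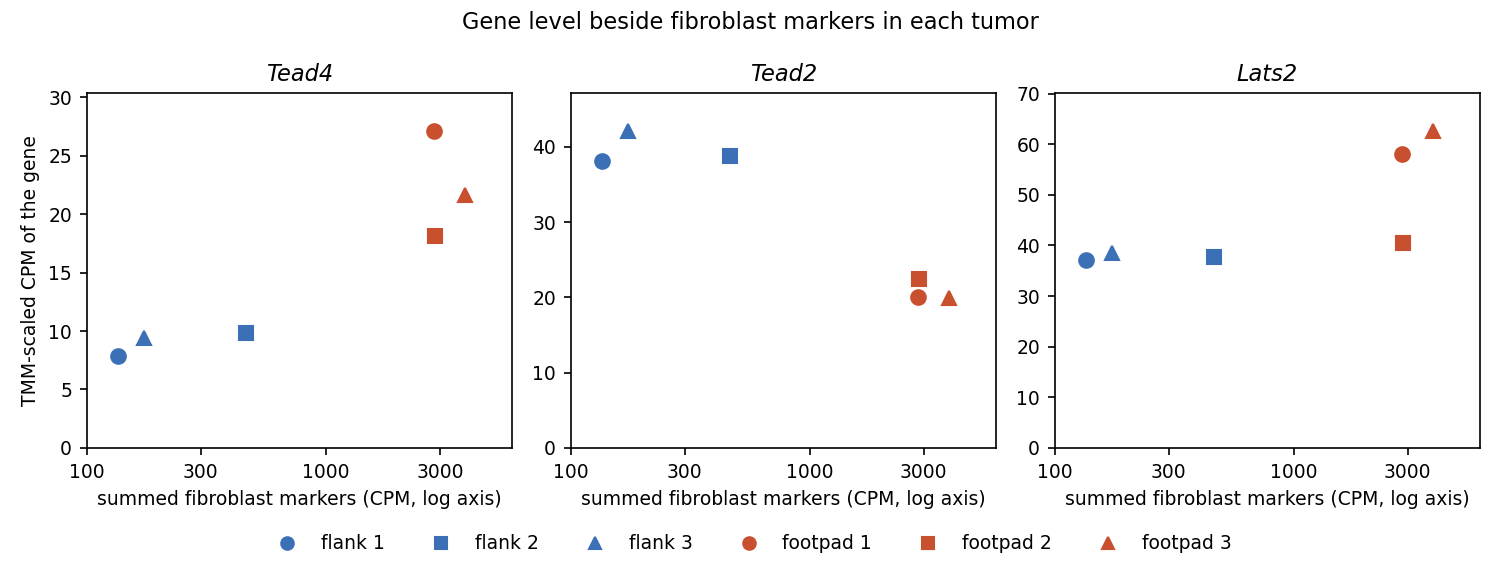
TMM-scaled CPM of Tead4, Tead2 and Lats2 (vertical axes, starting at 0) against the summed CPM of 10 fibroblast markers (horizontal log axis) in each of the 6 tumors. Flank tumors (blue) lie at 135 to 465 CPM of markers and footpad tumors (red) at 2826 to 3838 CPM, so the marker sum and the site cannot be told apart across the 6 tumors.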

How the data were processed

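RNA of 6 B16F10 tumors was analysed, with site and replicate number taken from the sample labels. Per the labels and the study's methods, the authors trimmed the reads with Trimmomatic, checked them with FastQC 0.11.7 and aligned them with HISAT2 2.1.0 to mm10. The deposited values are whole read counts per gene, not normalized, and FPKM, in which the authors divided by gene length and by depth. Which program counted the reads and its handling of strand are not given in the sources used here.

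Counts were fitted with edgeR 4.0.16 in R 4.3.3 (TMM, filterByExpr at its defaults, glmQLFit, glmQLFTest, Benjamini-Hochberg). The standard error was taken as the size of the log2 fold change divided by the square root of F. The common coefficient of variation was 0.338, above counting error for these genes, and counts cover counting error only. Shares of FPKM were compared by exact permutation. Coordinates and start-site windows came from RefSeq, and exon overlaps from GENCODE M21.

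The 10 genes, the pathway lists and the markers were chosen with earlier results of these data known. Named are all 10 genes, the 5 genes nearest in pattern to Tead2 and Tead4, and of each list the genes with an adjusted p under 0.05 or, where there was none, the 2 with the smallest p, of which 1 is not reported here. Stk3, Stk4, Sav1, Nf2, Ccn1, Ccn2, Vgll1 and Vgll2 were named in addition, after their values were seen. Alternatives were DESeq2 1.42.0, limma 3.58.1 on log2(FPKM + 1) and log2(FPKM + 0.1), upper-quartile scaling, no filter, at least 10 reads in every tumor, any fold, a replicate block and leaving out each tumor. The fit was tested on simulated data.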

Additional observations from a re-analysis of the deposited data

How the results depend on the processing

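Of the 10 genes, 6 kept the sign of the log2 fold change in all 13 alternatives run for each. The sign turned for Wwtr1 without flank tumor 1 (range over the 6 tumors left out in turn -0.167 to 0.106), Vgll3 without footpad tumor 3 (-0.0341 to 0.321), Vgll4 without footpad tumor 3 (-0.00347 to 0.131) and Lats1 without flank tumors 2 and 3 (-0.152 to 0.0393). The difference in Vgll3 share turned without footpad tumors 1 and 3 and flank tumor 1 (-1.02 to 3.07 points). Genes called numbered 1506 with DESeq2 (8.78% of 17158), 366 with limma on log2(FPKM + 1), and 0 to 836 with 1 tumor left out. Members called numbered 1, rising to 2 at any fold and ranging from 0 to 1 with 1 tumor left out. List genes called numbered 12 with DESeq2, 1 with limma on log2(FPKM + 1) and 0 to 6 with 1 tumor left out. The Tead4 share differed by 20.7 points with counts per kilobase of GENCODE M21 exons, an alternative chosen after seeing the data, and by 16.7 to 18.5 points with 1 tumor left out. Shares by merged RefSeq exons were not run, as exon models of RefSeq were not used here.

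Same-numbered tumors did not deviate together (correlations of 0.0544, -0.0965 and -0.115), so the numbers were not taken to pair them. With the replicate block edgeR called 0 genes, 0 members and 0 list genes, with 3551, 3 and 28 at an unadjusted p under 0.05, the log2 fold changes of Tead4 and Tead2 were 1.29 and -0.93 (adjusted p = 0.090 and 0.080), and the exact sign-flip test of the Tead4 share gave 0.25, its smallest possible p. Other members did not pass the test with or without the block. The cause of these changes was not tested. Depth did not limit these genes, since each had at least 138 reads in every tumor.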
